A study of Mus musculus with 8 samples.

Results

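Interferon response and antigen presentation genes were examined in cultured mouse undifferentiated spermatogonia exposed to AGX51, a small-molecule inhibitor of all inhibitor of DNA-binding (ID) proteins. Members were defined by gene names, in a rule set with earlier results of these data known: the MHC (H2) genes, *B2m*, the *Tap* and *Tapbp* peptide-loading genes, *Nlrc5*, the interferon receptors, the STAT and IRF factors, the *Irf2bp* genes, which share the IRF prefix, the RNA sensors *Ddx58* and *Ifih1*, and interferon-induced genes of the *Ifi*, *Ifit*, *Ifitm*, *Isg*, *Oas*, *Gbp*, *Irgm*, *Mx*, *Rsad2*, *Bst2* and *Usp18* names. Of 17167 genes in the deposited table, 80 members are described, and 65 of these had enough counts for a test. The AGX51 group was wild-type spermatogonia given AGX51 at 80 µM for 20 h, and the vehicle group was the same cultures given DMSO for 20 h, with 4 libraries in each group. Each of 4 cultures came from an individual adult wild-type mouse and gave 1 library of each group. The cultures are numbered 1 to 4 here and carry the letters C, D, E and G in the labels. The sample labels write the dose in mM, and they give the strain as CBA/J where the supplementary methods give C57BL/6J. This bears on the MHC genes, which differ in sequence between mouse strains and were counted against the GRCm38 reference. Both groups had been grown on inactivated mouse embryonic fibroblast feeders, which were reduced by attachment to plastic before the cells were plated on a matrix and treated.

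Interferons bind cell-surface receptors (IFNAR for type I, IFNGR for type II), whose JAK kinases phosphorylate STAT factors. STAT dimers bind GAS elements, and a complex that holds STAT2 and IRF9 binds the interferon-stimulated response element (ISRE), which other IRF factors also recognise. The induced genes restrict viruses and load peptides onto MHC molecules for T cells. Class I molecules, made of a heavy chain and β2-microglobulin, are found on most nucleated cells, and male germ cells are known for low surface levels of them. ID proteins keep E-proteins, a class of basic helix-loop-helix factors, from binding E-box sequences, and AGX51 was used to inhibit the ID family as a whole.

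Library totals were 4303318 to 8441399 counts with AGX51 and 8330176 to 9586105 with vehicle, lower with AGX51 in each culture. An exact two-sided permutation test that did not use the pairing by culture gave p = 0.0571, where 0.0286 is the smallest possible. All 15 markers of undifferentiated spermatogonia were listed, with summed levels of 1203 to 1498 normalised CPM (CPM on TMM-scaled library sizes) with AGX51 and 1833 to 2229 with vehicle. All 22 fibroblast markers were also detected. Their sum was 5904, 6973, 7337 and 11313 normalised CPM in AGX51 cultures 1 to 4, against 4565, 5889, 5092 and 7383 in vehicle cultures 1 to 4. Of these markers 9 were higher (8 with culture as a block) and 1 was lower with AGX51 by the test below, among them the matrix protein gene *Sparc*, named after its values were seen, at a log2 fold change of 0.83 (edgeR adjusted p = 0.0112). The fibroblast marker mean was 6.66 ± 0.42 log2 CPM with AGX51 and 6.27 ± 0.29 with vehicle (SD, n = 4 each), higher in each culture (p = 0.171, the same unpaired exact permutation test, two-sided). Of 15 macrophage and dendritic cell markers, 10 were listed, and their sum was 49.2 to 135 normalised CPM with AGX51 and 62.5 to 138 with vehicle. *Cd68* among them rose and *Fcer1g* and *Mrc1* fell. Of 8 endothelial markers 6 were listed, and their sum was 6.72 to 8.69 normalised CPM with AGX51 and 12.2 to 17.6 with vehicle, while the 2 of 12 lymphocyte markers that were listed summed to 3.77 to 7.41 with AGX51 and 9.21 to 14.6 with vehicle, both lower in each culture and without overlap. The part of these cells in the results below was not tested. *Ptprc*, *Csf1r*, *Adgre1*, *Itgam* and *Itgax* were not among the listed genes. In bulk RNA, a change in the number of cells of a type and a change in RNA per cell cannot be told apart.

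Most of these genes were not called, and those that changed with AGX51 went in both directions. Calls required an edgeR adjusted p under 0.05 together with a change of more than 1.5-fold. By this rule 7 of the 65 tested members were higher (10.8%, against 8.57% of all 14428 tested genes), 5 were lower (7.69%, against 9.93% of all) and 53 were not called. In either direction 18.5% of members were called in this fit without a culture block, which is the share of all tested genes (18.5%). With culture as a block, 10 of 65 members were higher (9.66% of all genes were) and 6 were lower (11.3% of all). Values below are from the fit without a block unless stated. At an adjusted p under 0.05 without the fold threshold there were 18 of 65 members, against 30.5% of all. The median log2 fold change was 0.06 over tested members and 0.00 over all tested genes. The genes that rose were *H2-Ab1*, *Isg15*, *Rsad2*, *Bst2*, *Ifi30*, *H2-D1* and *Irf2bp2*, and those that fell were *Ifi47*, *Ifih1*, *Oas1c*, *Gbp2* and *Stat5a*. The 7 that rose were higher in each of the 4 cultures, and the 5 that fell were lower in each. Groups did not overlap for 6 of the 7 that rose and for all 5 that fell. Across the tested members, all AGX51 libraries lay above all vehicle libraries for 7 genes (14.8% of all genes did so) and below them for 10 (15.5% of all).

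**Figure D1:**
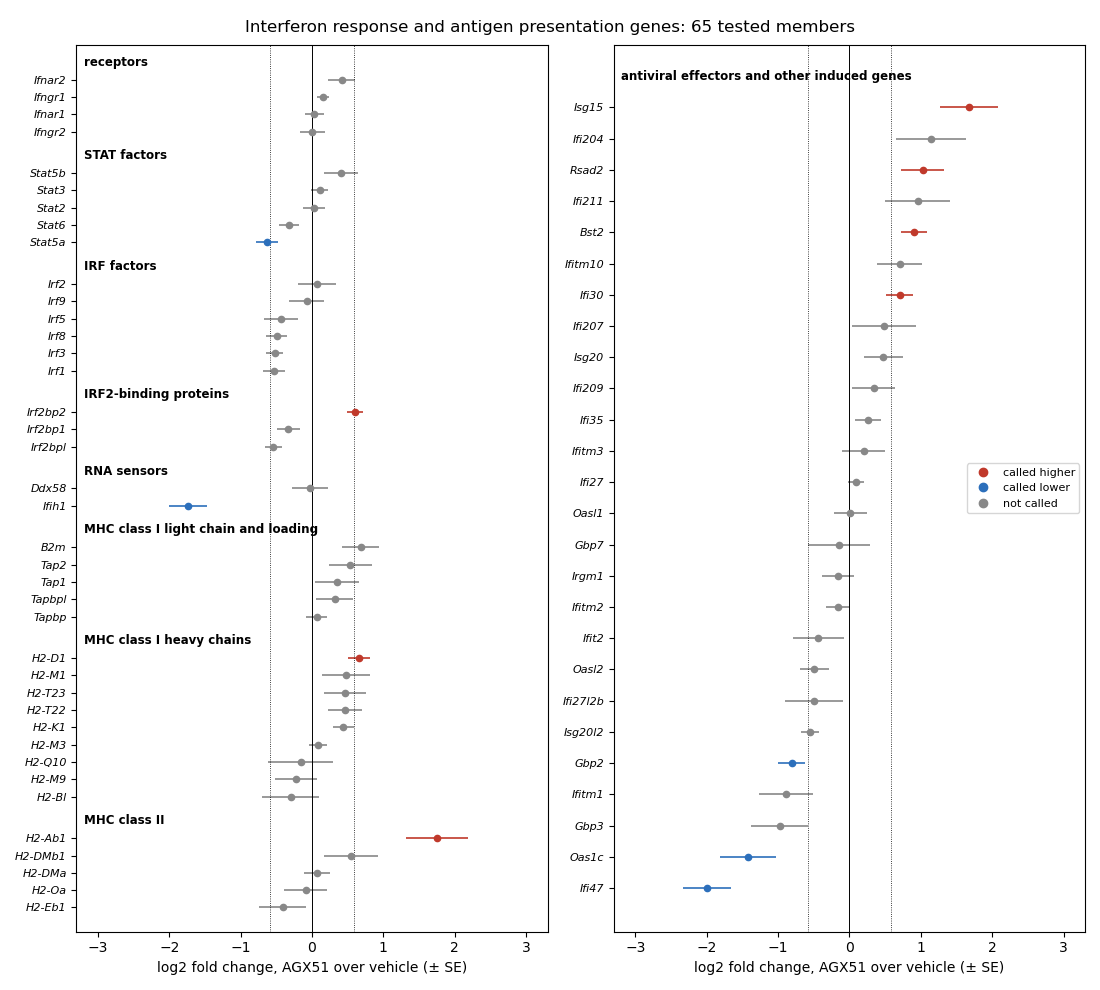
Log2 fold change of AGX51 over vehicle for the 65 tested members, grouped by role, with bars of 1 standard error from edgeR; dotted lines mark a 1.5-fold change, red marks the 7 genes called higher and blue the 5 called lower. Most points lie between the dotted lines, *H2-Ab1* stands farthest to the right at 1.75 and *Ifi47* farthest to the left, having fallen by 2.00.

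Promoters of 6 called members are shown because each holds an ISRE core, and these genes include both ones that rose and ones that fell. They are RefSeq promoters on GRCm38.p6, from 250 bases before to 50 bases after the annotated start, read 5′ to 3′ on the gene's own strand. Of 80 members 65 had an entry, and *H2-Ab1* had none. The ISRE core was searched as GAAA followed, after any 2 bases, by another GAAA, the GAS element as TTCNNNGAA and the E-box bound by E-proteins as CAGGTG, each on both strands with overlapping matches kept. Capitals mark ISRE core and GAS matches, and positions give the first base of a match relative to the start. The first 3 promoters belong to genes that rose with AGX51 and the last 3 to genes that fell.

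Isg15, chr4:156200769-156201068 (- strand): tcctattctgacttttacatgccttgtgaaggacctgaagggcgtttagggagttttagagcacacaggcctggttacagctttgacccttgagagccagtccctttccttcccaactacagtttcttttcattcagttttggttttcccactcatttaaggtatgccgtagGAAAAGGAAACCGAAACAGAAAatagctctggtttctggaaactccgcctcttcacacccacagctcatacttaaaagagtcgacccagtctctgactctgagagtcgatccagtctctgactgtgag
Bst2, chr8:71537423-71537722 (- strand): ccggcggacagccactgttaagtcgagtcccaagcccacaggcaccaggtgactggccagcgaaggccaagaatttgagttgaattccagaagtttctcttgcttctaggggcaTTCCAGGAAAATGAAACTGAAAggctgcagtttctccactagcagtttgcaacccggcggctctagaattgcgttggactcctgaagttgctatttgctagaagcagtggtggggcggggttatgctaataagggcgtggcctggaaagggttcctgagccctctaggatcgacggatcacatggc
Rsad2, chr12:26456403-26456702 (- strand): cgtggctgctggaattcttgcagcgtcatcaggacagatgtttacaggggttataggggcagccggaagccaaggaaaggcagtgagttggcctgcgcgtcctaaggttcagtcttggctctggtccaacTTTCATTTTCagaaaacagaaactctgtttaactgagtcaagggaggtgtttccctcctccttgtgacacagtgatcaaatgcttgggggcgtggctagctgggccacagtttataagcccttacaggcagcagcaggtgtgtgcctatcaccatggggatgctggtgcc
Ifih1, chr2:62646206-62646505 (- strand): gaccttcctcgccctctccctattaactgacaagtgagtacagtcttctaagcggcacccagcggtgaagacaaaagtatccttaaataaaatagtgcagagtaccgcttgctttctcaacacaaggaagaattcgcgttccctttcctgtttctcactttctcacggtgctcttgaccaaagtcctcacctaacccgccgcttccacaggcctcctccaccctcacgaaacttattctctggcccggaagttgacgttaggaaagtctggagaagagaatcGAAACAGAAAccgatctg
Gbp2, chr3:142620413-142620712 (+ strand): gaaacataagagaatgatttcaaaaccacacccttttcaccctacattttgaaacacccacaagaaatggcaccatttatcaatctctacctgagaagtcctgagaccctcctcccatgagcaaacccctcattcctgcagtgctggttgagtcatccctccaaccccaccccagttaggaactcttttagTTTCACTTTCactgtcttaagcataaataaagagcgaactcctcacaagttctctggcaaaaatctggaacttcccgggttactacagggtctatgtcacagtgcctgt
Oas1c, chr5:120812465-120812764 (- strand): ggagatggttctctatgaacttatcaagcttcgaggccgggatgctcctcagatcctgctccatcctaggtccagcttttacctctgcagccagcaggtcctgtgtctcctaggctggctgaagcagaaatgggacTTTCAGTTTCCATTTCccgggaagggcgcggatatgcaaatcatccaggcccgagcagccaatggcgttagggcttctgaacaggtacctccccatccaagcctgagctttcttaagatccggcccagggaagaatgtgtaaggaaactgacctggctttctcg

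*Isg15* held 3 overlapping ISRE cores at -78, -72 and -66. *Bst2* held a pair at -130 and -124, running on from a GAS match at -136, and *Rsad2* held 1 at -120 on the opposite strand. Among the genes that fell, *Oas1c* held a pair at -114 and -108 and *Gbp2* held 1 at -59, also on the opposite strand. *Ifih1* held 1 at 32 bases after the start. Over all matched members, 23 of 65 genes had an ISRE core in at least 1 of their entries, where 3.43% of 32817 single promoters in the table did. Some members have more than 1 entry, so here and below members are counted per gene and the share of all per promoter. Of called genes with an entry, it was found in 3 of 6 that rose and 3 of 5 that fell. A GAS match was found in 14 of 65 genes (8.29% of all promoters) and the E-box in 14 of 65 (20.2% of all promoters). The E-box was found in 4 of 6 called genes that rose and 1 of 5 that fell. These matches are letters in a window and not measured binding, and sites that differ from the words searched were not counted.

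**Figure D2:**
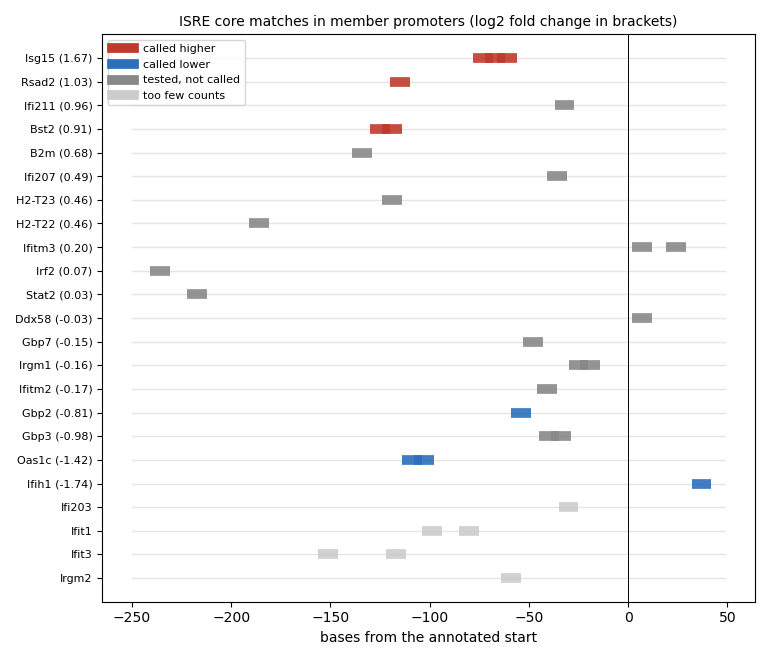
Positions of ISRE core matches in the promoters of 23 members, as bases from the annotated start (vertical line), with genes ordered by log2 fold change (in brackets) and those with too few counts for a test at the bottom. Matches occur in genes called higher (red, *Isg15*, *Rsad2* and *Bst2*), called lower (blue, *Gbp2*, *Oas1c* and *Ifih1*) and not called (grey).

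No interferon gene could be followed. Of 23 genes on a list of interferons and related ligands, the table held only *Il6*, an interleukin gene, with too few counts for a test. The 4 receptor chains were all expressed and none was called. *Ifngr1*, the ligand-binding chain of the type II receptor, was at 94.7, 85.8, 94.5 and 91.1 normalised CPM in AGX51 cultures 1 to 4, against 83.3, 76.4, 84.0 and 84.95 in vehicle cultures 1 to 4. All AGX51 values lay above all vehicle values, by a log2 fold change of 0.16 (SE 0.08) that did not pass the test (edgeR adjusted p = 0.178). *Ifnar2*, a chain of the type I receptor, was at 10.58 to 13.97 normalised CPM with AGX51 and 7.67 to 11.9 with vehicle, with overlapping groups and a log2 fold change of 0.42 (SE 0.19, edgeR adjusted p = 0.107). *Ifnar1* and *Ifngr2*, the partner chains, stood at 0.03 (SE 0.13) and 0.01 (SE 0.18).

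Downstream of the receptors, 2 of 19 tested JAK kinases and negative regulators rose (10.53%) and 3 fell (15.8%), against 8.57% and 9.93% of all tested genes, with a median log2 fold change of -0.18. All but *Tyk2* of the 5 are feedback inhibitors. *Cish*, an inhibitor of cytokine receptors that STAT5 is known to induce, was at 9.22, 10.64, 9.11 and 9.71 normalised CPM in AGX51 cultures, against 2.85, 3.37, 2.93 and 2.92 in vehicle cultures. Every AGX51 library lay above every vehicle library, a log2 fold change of 1.67 (SE 0.18, edgeR adjusted p = 5.33e-05). *Socs2*, another STAT5-induced inhibitor, rose by 0.94 (SE 0.17). *Socs1*, the main brake on interferon receptor signalling, was at 6.61 to 9.98 normalised CPM with AGX51 and 15.6 to 16.5 with vehicle, and fell by 1.01 on the log2 scale (SE 0.16, edgeR adjusted p = 0.000502). *Socs5* fell by 0.83 (SE 0.17), and *Tyk2*, a kinase that type I interferon receptors use, fell by 0.70 (SE 0.18, named after its values were seen).

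Of 5 tested STAT genes, 1 fell (20.0%, against 9.93% of all tested genes) and the others were not called. *Stat5a*, which carries cytokine and growth factor signals, was at 12.0, 16.9, 14.1 and 15.6 normalised CPM in AGX51 cultures 1 to 4, against 22.6, 22.9, 26.5 and 18.7 in vehicle cultures 1 to 4. The groups did not overlap, and *Stat5a* fell by 0.63 on the log2 scale (SE 0.15, edgeR adjusted p = 0.00743). Its close paralog *Stat5b* stood at 0.41 (SE 0.24, edgeR adjusted p = 0.208) and did not pass the test. Of the 50-base words of *Stat5a*, 8.52% occur in another gene, most often *Stat5b*. Such shares, here and below, cover whole transcripts, and the share of ambiguous reads in these poly(A)-primed libraries was not measured. The exons of *Stat5a* also share bases with *Stat3* on the other strand, and strand use in counting is not given in the sources used here. *Stat5a* was no longer called without AGX51 replicate 1 or vehicle replicate 3 (log2 fold changes over the left-out libraries -0.72 to -0.53). *Stat2*, which carries the type I interferon signal, was at 11.6 to 15.8 normalised CPM with AGX51 and 12.2 to 15.1 with vehicle. Its log2 fold change was 0.03 (SE 0.15), and that of *Stat3* was 0.11 (SE 0.12).

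None of the 6 tested IRF factors was called by edgeR, and 5 of the 6 had a log2 fold change below 0. Their summed level was 99.0, 95.1, 90.4 and 89.7 normalised CPM in AGX51 cultures 1 to 4, against 126, 135, 136 and 120.1 in vehicle cultures 1 to 4, without overlap. By edgeR 3 of the 6 were lower at an adjusted p under 0.05, and the same 3 at an unadjusted p under 0.05. Of all tested genes, 30.5% had an adjusted p under 0.05 in either direction. Their log2 fold changes lay between -0.53 and 0.07, with a median of -0.46. *Irf1*, an interferon-induced activator of MHC class I genes, was at 28.9, 24.2, 28.8 and 17.8 normalised CPM with AGX51, against 35.2, 38.3, 36.7 and 33.8 with vehicle, at a log2 fold change of -0.53 (SE 0.15, edgeR adjusted p = 0.0165). *Irf3*, which acts after virus sensing, was at 34.9, 37.5, 27.3 and 37.4 normalised CPM with AGX51, against 51.2, 49.4, 50.7 and 45.3 with vehicle, at -0.52 (SE 0.12, edgeR adjusted p = 0.00507). *Irf8*, a factor of myeloid cells, was at -0.49 (SE 0.15, edgeR adjusted p = 0.0219). For these 3 genes all AGX51 libraries lay below all vehicle libraries, as for 15.5% of all tested genes. They passed the adjusted p threshold at under 1.5-fold, so they were not called. With library totals in place of TMM, *Irf1* and *Irf3* were called lower. *Irf9*, the DNA-binding partner of STAT2, was at -0.07 (SE 0.24), and *Irf7* was not among the listed genes.

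Of the 3 IRF2-binding proteins, corepressors named for IRF2, *Irf2bp2* was called higher (33.3%, against 8.57% of all tested genes). *Irf2bp2* was at 77.4, 68.7, 60.7 and 70.5 normalised CPM in AGX51 cultures 1 to 4, against 52.4, 42.9, 42.1 and 45.2 in vehicle cultures 1 to 4. It rose by 0.60 (log2, SE 0.11, edgeR adjusted p = 0.00122), or 1.52-fold, which is close to the fold threshold, and the call was lost with upper quartile or total scaling and without AGX51 replicate 1 or vehicle replicate 3 (0.56 to 0.68 over the left-out libraries). It shares 19.7% of its 50-base words with the antisense gene *Gm26759*. *Irf2bpl* was at 42.0 ± 4.38 normalised CPM with AGX51 and 61.2 ± 8.05 with vehicle (SD, n = 4 each), at a log2 fold change of -0.54 (SE 0.12, edgeR adjusted p = 0.004), with groups that did not overlap, and was not called because the change was under 1.5-fold. *Irf2bp1* stood at -0.33 (SE 0.16, edgeR adjusted p = 0.133).

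Among the RNA sensors, *Ifih1* fell and *Ddx58* did not pass the test. *Ifih1*, on chromosome 2 (62595798 to 62646255), encodes MDA5, which detects long double-stranded RNA. It was at 2.81, 2.66, 3.38 and 2.55 normalised CPM in AGX51 cultures 1 to 4, against 10.97, 8.02, 12.98 and 6.25 in vehicle cultures 1 to 4. All 4 AGX51 libraries lay far below the lowest vehicle library, and *Ifih1* fell by 1.74 on the log2 scale (SE 0.26, edgeR adjusted p = 0.000397), to 0.30 of its vehicle level. The *Ifih1* values stand for 12 to 23 counts per AGX51 library and 60 to 124 per vehicle library. The call held under each of 21 alternative settings. *Ddx58*, which encodes the sensor RIG-I, was at 2.66 to 4.88 normalised CPM with AGX51 and 3.07 to 4.79 with vehicle, at -0.03 (SE 0.26). On the wider list of nucleic acid sensing genes and adaptors, 1 of 21 tested genes rose (4.76%) and 4 fell (19.0%), against 8.57% and 9.93% of all tested genes, with a median log2 fold change of -0.19. *Mb21d1*, which encodes the DNA sensor cGAS, was at 5.79, 3.33, 5.58 and 2.55 normalised CPM in AGX51 cultures, against 10.1, 11.04, 9.52 and 8.54 in vehicle cultures, and fell by 1.18 (SE 0.25, edgeR adjusted p = 0.00338). *Tmem173*, which encodes its adaptor STING, was at 7.35 to 8.81 normalised CPM with AGX51 and 12.7 to 18.9 with vehicle, and fell by 0.85 (SE 0.17, edgeR adjusted p = 0.00286). *Dhx58*, which encodes LGP2, a relative of RIG-I and MDA5, fell by 0.94 (SE 0.20). *Rnaseh2c*, a subunit of the enzyme that removes RNA from DNA hybrids, fell by 0.59 (SE 0.13), at the edge of the fold threshold, and was called under 8 of 21 alternatives. The antiviral RNA-binding gene *Zc3hav1* rose by 0.62 (SE 0.16) and was named after its values were seen.

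Antiviral effectors and other induced genes were the largest group, with 26 of 37 tested. Of the 26, 4 rose (15.4%), 3 fell (11.5%) and 19 were not called, against 8.57% and 9.93% of all tested genes, with a median log2 fold change of 0.05. *Isg15*, a ubiquitin-like protein joined to other proteins after interferon, was at 7.35, 5.99, 12.3 and 19.3 normalised CPM in AGX51 cultures 1 to 4, against 2.52, 1.39, 4.92 and 5.41 in vehicle cultures 1 to 4. The groups did not overlap, cultures 3 and 4 were the highest in both groups, and the log2 fold change was 1.67 (SE 0.41, edgeR adjusted p = 0.00798). *Bst2*, which encodes tetherin, a membrane protein that holds budding virus at the cell surface, was at 41.0, 33.5, 44.4 and 68.9 normalised CPM in AGX51 cultures, against 26.8, 24.2, 23.4 and 26.3 in vehicle cultures. Every AGX51 library was above every vehicle library, with culture 4 the highest, and *Bst2* rose by 0.91 (SE 0.18, edgeR adjusted p = 0.00259). *Rsad2*, which encodes viperin, an enzyme that makes a chain-terminating nucleotide against viruses, was at 7.97, 3.10, 6.47 and 4.85 normalised CPM in AGX51 cultures, against 2.85, 1.86, 2.72 and 3.64 in vehicle cultures. Its groups overlapped, since AGX51 culture 2 lay under vehicle culture 4, although each culture was higher with AGX51. *Rsad2* rose by 1.03 (SE 0.30, edgeR adjusted p = 0.0205), a call that was lost without AGX51 replicate 1, AGX51 replicate 3 or vehicle replicate 2 (0.83 to 1.22 over the left-out libraries). *Ifi30*, a lysosomal thiol reductase that unfolds proteins for class II presentation, was at 30.5, 26.8, 27.6 and 41.5 normalised CPM with AGX51, against 16.9, 14.9, 21.0 and 25.2 with vehicle. It rose by 0.70 (SE 0.19, edgeR adjusted p = 0.0124) without overlap between groups, and the call was lost without AGX51 replicate 4 (0.54).

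The effectors that fell were 2 interferon-inducible GTPases and an OAS family gene. *Ifi47*, an immunity-related GTPase of intracellular defence, was at 0.782, 1.33, 0.882 and 0.766 normalised CPM in AGX51 cultures 1 to 4, against 3.51, 3.14, 5.23 and 2.81 in vehicle cultures 1 to 4. These stand for 5 to 6 counts per AGX51 library and 27 to 50 per vehicle library, and *Ifi47* fell by 2.00 on the log2 scale (SE 0.34, edgeR adjusted p = 0.000797). It shares exons with *Olfr56* on the same strand and *Gm12188* on the other, so its reads cannot be fully told apart. *Gbp2*, a guanylate-binding protein that attacks vacuoles of pathogens, was at 7.505, 4.88, 5.14 and 5.75 normalised CPM in AGX51 cultures, against 9.21, 10.9, 10.9 and 10.1 in vehicle cultures. The groups did not overlap and *Gbp2* fell by 0.81 (SE 0.19, edgeR adjusted p = 0.00543). *Oas1c*, a member of the oligoadenylate synthetase family, was at 0.782, 0.444, 0.441 and 1.28 normalised CPM with AGX51, against 1.65, 2.44, 2.62 and 1.67 with vehicle, from 2 to 10 counts per AGX51 library and 15 to 25 per vehicle library. It fell by 1.42 (SE 0.39, edgeR adjusted p = 0.0161), shares 15.1% of its 50-base words with other genes, and was no longer called without AGX51 replicate 3 or vehicle replicate 3 (-1.86 to -1.22 over the left-out libraries). *Isg20l2*, a nuclease of ribosomal RNA maturation that carries the ISG name by homology, was at 21.4 ± 3.03 normalised CPM with AGX51 and 31.3 ± 2.56 with vehicle (SD, n = 4 each), at a log2 fold change of -0.55 (SE 0.13, edgeR adjusted p = 0.00693), under the fold threshold.

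**Figure D3:**
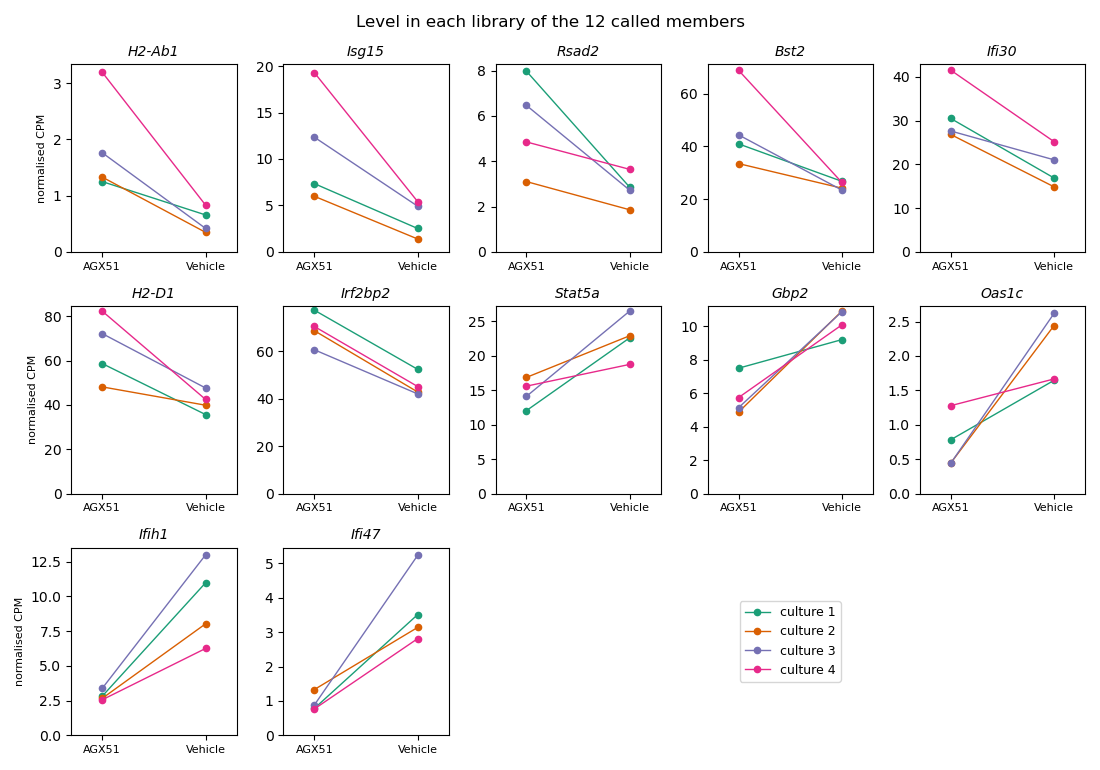
Normalised CPM in each library of the 12 called members, AGX51 on the left and vehicle on the right of each panel, with a line joining the libraries of 1 culture. All lines fall to the right for the 7 genes called higher and rise to the right for the 5 called lower, and culture 4 has the highest AGX51 value of *H2-Ab1*, *Isg15*, *Bst2*, *Ifi30* and *H2-D1*.

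The remaining effectors lay between -0.98 and 1.14 on the log2 scale without a call. Among them, *Ifi204*, *Ifitm10* and *Ifitm1*, named after their values were seen, were called once culture was a block, at 1.19, 0.75 and -0.93 (edgeR adjusted p = 0.00303, 0.0328 and 0.00984). *Ifi204* was at 2.81, 2.22, 3.82 and 6.39 normalised CPM in AGX51 cultures, against 0.987, 0.697, 1.26 and 4.06 in vehicle cultures, so that culture 4 was the highest in both groups and vehicle culture 4 overlapped the AGX51 range. Many of the most widely used interferon-induced genes were too low for a test. *Ifit1*, *Ifit3*, *Mx1*, *Usp18*, *Ifi44*, *Irgm2* and *Oas1b* were among 15 untested members, which had at most 24 counts in any library and at most 3.07 normalised CPM. Of these 15, none was called when the count filter was dropped, and none had an unadjusted p under 0.05 (edgeR, smallest adjusted p 0.15). On a second list of 27 tested interferon-induced genes outside the name rule, 1 rose and 5 fell (3.70% and 18.5%, against 8.57% and 9.93% of all tested genes), with a median log2 fold change of -0.32. With culture as a block 2 rose and 8 fell (9.66% and 11.3% of all genes did): *Lgals3bp* was added at 0.75 (edgeR adjusted p = 0.0126), and *Parp14*, *Ly6a* and *Phf11d* at -0.86, -0.99 and -0.65 (edgeR adjusted p = 0.0316, 7.33e-07 and 0.00633), all 4 named after their values were seen. *Trim12c*, of a family of antiviral TRIM proteins, was at 19.9, 15.1, 17.6 and 14.2 normalised CPM in AGX51 cultures, against 34.8, 31.8, 30.2 and 34.8 in vehicle cultures, and fell by 0.98 (SE 0.14, edgeR adjusted p = 0.000226). *Trim21*, a cytosolic antibody receptor, was at 0.882 to 1.66 normalised CPM with AGX51 and 3.12 to 3.66 with vehicle, and fell by 1.54 (SE 0.29). The ubiquitin ligase gene *Dtx3l* fell by 1.26 (SE 0.24) and the RNA helicase gene *Mov10* by 0.95 (SE 0.17), both without overlap between groups. *Cd274*, the gene of the T cell inhibitory ligand PD-L1, rose by 1.08 (SE 0.26), and *Tdrd7*, a Tudor domain gene of germ cell granules, fell by 0.62 (SE 0.15), both named after their values were seen.

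Of 12 listed MHC class I heavy chain genes 9 were tested, and 1 of these, *H2-D1*, rose (11.1%, against 8.57% of all tested genes). The median log2 fold change was 0.44, and the 8 not called lay between -0.30 and 0.48. Mean levels were higher with AGX51 for 6 of the 12 and lower for the other 6, among them the untested *H2-M5*, *H2-T10* and *H2-T24*. *H2-D1*, a classical heavy chain on chromosome 17 (35262730 to 35267499), was at 58.6, 48.1, 72.1 and 82.3 normalised CPM in AGX51 cultures 1 to 4, against 35.7, 39.9, 47.6 and 42.5 in vehicle cultures 1 to 4. The lowest AGX51 library lay just above the highest vehicle library, and the log2 fold change was 0.66 (SE 0.15, edgeR adjusted p = 0.00553). It was no longer called without AGX51 replicate 4 (0.54), without both libraries of culture 4 or with library totals in place of TMM. *H2-K1*, the other classical heavy chain, was at 30.0, 37.2, 34.4 and 46.4 normalised CPM with AGX51, against 27.3, 23.4, 31.9 and 26.7 with vehicle, at 0.44 (SE 0.15, edgeR adjusted p = 0.0381) and under the fold threshold. Each culture was higher with AGX51, and the groups overlapped. Heavy chain genes resemble each other: 12.8% of the 50-base words of *H2-D1* and 9.63% of those of *H2-K1* occur in another gene, so that some reads could be split between them or left out.

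*B2m*, the light chain of every classical class I molecule, on chromosome 2 (122147686 to 122153083), had none of its words in another gene. It was at 327.6, 278, 473 and 722 normalised CPM in AGX51 cultures 1 to 4, against 233, 228, 273 and 391 in vehicle cultures 1 to 4. Every culture was higher with AGX51, the 2 groups overlapped because vehicle culture 4 lay above AGX51 cultures 1 and 2, and the log2 fold change of 0.68 (SE 0.26) missed the threshold (edgeR adjusted p = 0.0614). With culture as a block it was called higher (0.62, edgeR adjusted p = 9.85e-05), and it was also called without AGX51 replicate 1, AGX51 replicate 2 or vehicle replicate 4 (0.36 to 0.88 over the left-out libraries). The peptide transporter genes *Tap1* and *Tap2* stood at 0.35 (SE 0.30) and 0.53 (SE 0.30), and *Tapbp*, which bridges the transporter and class I, at 0.06 (SE 0.14). *Nlrc5*, the class I transactivator, was at 0.147 to 0.887 normalised CPM with AGX51 and 0.628 to 1.39 with vehicle, too low for a test.

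Of 13 tested genes that supply class I peptides or fold class I, 2 rose and 2 fell (15.4% each, against 8.57% and 9.93% of all tested genes), with a median log2 fold change of -0.01. *Psme2*, a subunit of the PA28 proteasome activator, was at 77.2, 76.9, 84.8 and 91.5 normalised CPM in AGX51 cultures, against 187, 133, 156 and 152 in vehicle cultures, and fell by 0.92 (SE 0.11, edgeR adjusted p = 0.000103). *Erap1*, which trims peptides in the endoplasmic reticulum, was at 11.3 to 17.0 normalised CPM with AGX51 and 26.4 to 30.0 with vehicle, and fell by 0.99 (SE 0.15, edgeR adjusted p = 0.000498). Neither gene overlapped between groups. *Psmb9*, a catalytic subunit of the immunoproteasome that shares exon bases with *Tap1*, was at 18.0 to 24.7 normalised CPM with AGX51 and 9.99 to 14.3 with vehicle, and rose by 0.73 (SE 0.16). *Hspa5*, the chaperone BiP of the endoplasmic reticulum and a general stress gene, rose by 0.74 (SE 0.11).

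Of 5 tested class II genes 1 rose (20.0%, against 8.57% of all tested genes). *H2-Ab1*, the β chain of the class II molecule I-A, on chromosome 17 (34257689 to 34269419), was at 1.25, 1.33, 1.76 and 3.19 normalised CPM in AGX51 cultures 1 to 4, against 0.658, 0.349, 0.419 and 0.833 in vehicle cultures 1 to 4. The groups did not overlap, on 6 to 25 counts per AGX51 library and 3 to 8 per vehicle library, and the log2 fold change was 1.75 (SE 0.43, edgeR adjusted p = 0.0087). The other 4 class II genes lay between -0.41 and 0.54, and the best expressed of the 5, *H2-DMa*, was at 10.1 to 18.2 normalised CPM with AGX51 and 11.9 to 14.2 with vehicle. Of 9 tested genes of the class II pathway and its RFX and NFY regulators, 3 rose and 1 fell (33.3% and 11.1%, against 8.57% and 9.93% of all tested genes). With culture as a block 3 rose and 3 fell, since *Rfx5* (-0.64, edgeR adjusted p = 0.0162) and *Ctss* (-0.76, edgeR adjusted p = 0.0361), named after their values were seen, were also called lower. *Lgmn*, a lysosomal protease that cuts antigens and the invariant chain, was at 165, 155, 186 and 160 normalised CPM in AGX51 cultures, against 97.1, 91.1, 89.2 and 92.0 in vehicle cultures, and rose by 0.85 (SE 0.09, edgeR adjusted p = 3.91e-05). *Nfya* and *Nfyc*, subunits of a CCAAT-binding factor with many targets beyond class II, rose by 0.81 (SE 0.16) and 0.67 (SE 0.14). *Rfxank*, a subunit of the RFX factor that class I and class II promoters use, fell by 0.68 (SE 0.16).

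The summed class I levels differed between cultures in both groups. Summed over the 6 listed light chain, loading and *Nlrc5* genes, the level was 366, 325, 511 and 770.0 normalised CPM in AGX51 cultures 1 to 4, against 268, 260, 314 and 436 in vehicle cultures 1 to 4, most of it from *B2m*. Summed heavy chains were at 170, 143, 189 and 235 with AGX51, against 141, 134, 156 and 161 with vehicle. Both sums were higher with AGX51 in 4 of 4 cultures, and both were highest in culture 4 and lowest in culture 2 within each group. The 37 effectors summed to 493, 474, 549 and 802 normalised CPM with AGX51, against 484, 496, 543 and 640 with vehicle, higher in 3 of 4 cultures with overlapping groups. Without *B2m*, the sum over all members was higher with AGX51 in 2 of 4 cultures.

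**Figure D4:**
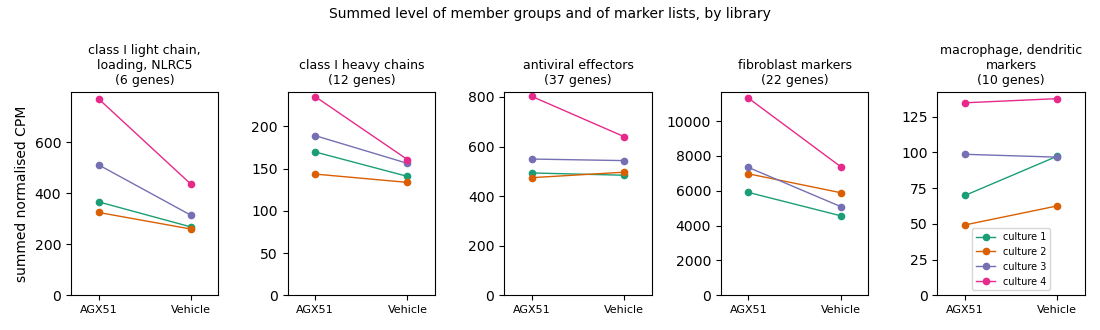
Summed normalised CPM by library for MHC class I light chain, loading and *Nlrc5* genes, class I heavy chains, antiviral effectors, fibroblast markers and macrophage and dendritic cell markers, with AGX51 on the left, vehicle on the right and a line for each culture. Culture 4 is the highest in all panels, and the fibroblast sum is higher with AGX51 in each of the 4 cultures.

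The summed fibroblast markers were likewise highest in culture 4 within each group and higher with AGX51 in each culture, although culture 1, not culture 2, was the lowest. The macrophage and dendritic cell markers summed to 69.9, 49.2, 98.6 and 135 normalised CPM in AGX51 cultures 1 to 4, against 97.3, 62.5, 96.6 and 138 in vehicle cultures 1 to 4, so that they too were highest in culture 4 and lowest in culture 2 within each group, and they were higher with AGX51 in 1 of 4 cultures. When the mean of the fibroblast markers was added to the model, 4 members were called higher and 5 lower. Over all tested genes 1240 were called higher and 1379 lower with this covariate, against 1236 and 1432 without it. *Irf2bp2* (0.65) and *Rsad2* (1.08) had log2 fold changes at or above those without it, and *Isg15* (0.98, edgeR adjusted p = 0.0352) and *Bst2* (0.61, edgeR adjusted p = 0.0098) were smaller and still called. *H2-D1* (0.45), *Ifi30* (0.43) and *H2-Ab1* (1.14) were no longer called, and *B2m* stood at 0.14 (edgeR adjusted p = 0.519). The 5 genes that fell were all still called. The marker mean was itself higher with AGX51 in each culture, so this fit cannot tell it apart from the treatment. The part of fibroblasts in these results was not tested.

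**Figure D5:**
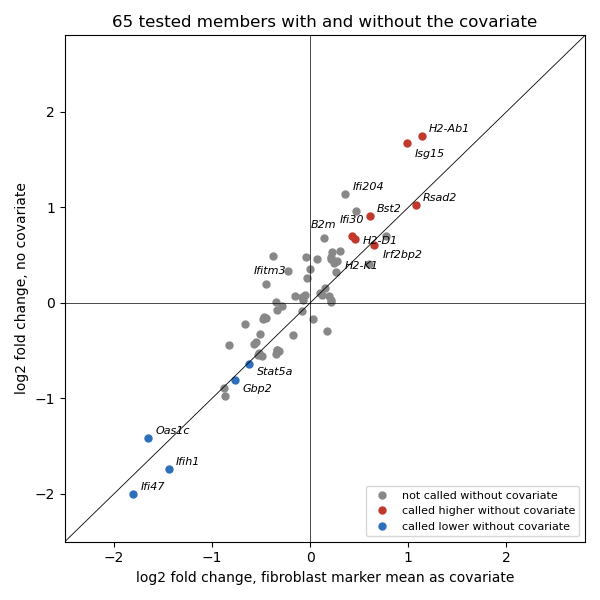
Log2 fold change of AGX51 over vehicle for the 65 tested members with the fibroblast marker mean added to the model (horizontal axis) and without it (vertical axis); red and blue mark genes called higher and lower without the covariate, and the line marks equal values. *Isg15*, *H2-Ab1*, *B2m* and *Bst2* lie above the line, while *Rsad2* lies near it.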

How the data were processed

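Poly(A)-primed RNA-seq libraries from 4 spermatogonial cultures, each with AGX51 and with vehicle, were used. The authors deposited raw counts per gene from their RNAsik pipeline (per the submitters' notes with STAR, Salmon and featureCounts on GRCm38, versions not given). CPM columns deposited beside them scale each count to its library's listed total and entered no test. Log2 fold change, log2 expression and p-value or FDR columns made by the authors with limma-voom hold their own comparison and were not used. The choice of listed genes and the strand setting of the counting are not given in the sources used here. Spreadsheet dates were restored to gene names for 22 genes, and 17151 of 17167 gene IDs, among them all 80 members described, matched GENCODE M21, which gave coordinates.

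Counts were filtered with filterByExpr (minimum count 10, minimum total 15), scaled by TMM and tested by edgeR 4.0.16 quasi-likelihood (R 4.3.3), AGX51 against vehicle without a block, with Benjamini-Hochberg adjustment over 14428 genes. A call needed an adjusted p below 0.05 together with a change over 1.5-fold. Replicate numbers pair the libraries by culture, as the labels' culture letters and the study's design give: after group means were removed, correlations ran between 0.113 and 0.444 for libraries of 1 culture, and between -0.287 and 0.0951 otherwise. A blocked value is given where it changed the call of a member or of a gene on a pathway list. Named genes were every called member, every member under an adjusted p of 0.05, core pathway genes, and up to 4 called genes with the smallest adjusted p of each pathway list. Other genes are marked in the text as picked with their values known. Not all are so marked: some cell type markers, some members not called or not tested, and genes that share sequence with a member are named without this remark. Of 82 genes that match the name rule, 2 are not reported here. The members and lists were chosen with earlier results of these data known. Alternatives were other scalings, filters and fold rules, DESeq2 1.42.0, limma-voom 3.58.1, the culture block, equal depth, a fibroblast covariate and libraries left out; calls were tested on simulated data.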

Additional observations from a re-analysis of the deposited data

Results flagged for a closer look

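Within a group of 4 libraries, a value was looked at again where its gap to the nearest other library, as a share of the group's range, passed Dixon's critical value for 4 samples, which chance gives in about 1 in 20 groups. Of 64 groups of named genes checked, 2 met this, both in vehicle. *Ifnar2* was at 11.9 normalised CPM in vehicle culture 4, against 7.67 to 8.34 in the other vehicle cultures. *Stat2* was at 15.1 in vehicle culture 2, against 12.2 to 12.6 in the others.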

How the results depend on the processing

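Of the 12 called members, all kept their call with RLE scaling, no count filter, a minimum of 1 CPM in 4 libraries, DESeq2, limma-voom and the culture block, and no named gene that was called changed direction under any alternative. With the replicate block, 10 members were higher and 6 lower, and over all genes 1394 and 1627 were. With the fibroblast covariate 4 members were higher (*H2-Ab1*, *H2-D1* and *Ifi30* were lost), and over all genes 1240 were. Members called lower were 8 with upper quartile scaling, 9 with library totals, 3 at equal depth, where 9 of the 12 called members had enough counts, and 10 without a fold threshold. All-gene lower calls moved the same way, from 1432 to 1679 with upper quartile scaling, 1752 with library totals, 1181 of 12746 at equal depth and 2211 without a fold threshold. Against a null of 1.5-fold (glmTreat), 0 members were higher (4 at an unadjusted p under 0.05, where DESeq2 and limma-voom, which test against no change, called 7 and 8) and 2 lower (*Ifih1* and *Ifi47*), and over all genes 323 were higher and 351 lower. Without a fold threshold 2190 genes were higher and 2211 lower. With library totals 952 genes were higher and 1752 lower, against 1236 and 1432 with TMM, a share of higher calls of 35.2% against 46.3%, while the median log2 fold change of all genes was -0.07. Leaving out 1 library gave 5 to 11 members higher, against 7 (11 without vehicle replicate 4, among them *B2m*) and 3 to 7 lower (3 without vehicle replicate 3, where *Oas1c* and *Stat5a* were lost). Over all genes it gave 1054 to 1294 higher (1278 without vehicle replicate 4) and 1172 to 1396 lower (1172 without vehicle replicate 3). The cause of these changes was not tested, except that fewer genes were testable at equal depth. Depth limits the low members most: 15 could not be tested, and *H2-Ab1*, *Ifih1*, *Ifi47* and *Oas1c* rest on 25 or fewer counts in each AGX51 library. Each group holds 4 libraries, shared sequence among MHC genes and the mouse strain were not resolved, and protein levels were not measured.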
